A study of Rattus norvegicus with 6 samples.

Results

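Freshly isolated hepatocytes of rats (Rattus norvegicus) that had gone through ischemia reperfusion (IR) under drug treatment were compared with hepatocytes of healthy rats, to describe what differed from healthy cells when both drugs had been given. The comparison takes 2 of the 6 libraries of the study, chosen by their labels. Control hepatocytes came from healthy, untreated animals. Treated IR hepatocytes came from animals whose portal vein was clamped for a time and then released, and which were given 2 drugs. These were etanercept (9 mg/kg, 16 to 18 h ahead of IR) and nitroglycerin (6 µg/kg/min, infused into a vein ahead of IR and while it lasted). RNA was taken 1 day after IR. Hepatocytes were obtained by collagenase perfusion from animals other than those that gave the whole-liver samples, and a library holds the pooled RNA of 3 animals. The other 4 libraries are used below only beside these 2: untreated IR hepatocytes, and whole liver of control, IR alone and treated IR. The labels name no sham operation for the control animals, so surgery, IR and the drugs cannot be told apart in this comparison. The labels give neither strain, sex and age nor the length of clamping.

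Hepatocytes are the parenchymal cells of the liver. They make most plasma proteins and carry out bile acid synthesis, urea production and drug metabolism. In IR injury the blood supply is stopped and restored, and the return of oxygen damages mitochondria and brings in inflammatory cells. Etanercept is a fusion protein that binds tumor necrosis factor, a cytokine of that inflammation. Nitroglycerin is a donor of nitric oxide, which widens vessels.

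Each group is 1 library, so a difference between them has no replicate check and no p-value is given. Higher and lower describe these 2 libraries. Levels are CPM, the reads of a gene scaled to the size of its library, with library sizes adjusted by the trimmed mean of M-values (TMM), and a ratio is the treated IR level divided by the control level. Each ratio has a 95% Clopper-Pearson interval that covers counting error only, since reads without molecular identifiers are not independent molecules. A gene was called apart when it was at least 2-fold higher or lower with an interval that excluded equality. The files name genes by Ensembl ID without symbols, and 0 of 26689 IDs matched a symbol in the reference table, so genes are described by level and behaviour. For the same reason the hepatocyte label could not be checked against marker genes, and no sequence is shown.

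The control library held 3448652 reads in genes and the treated IR library 2716994. A read was found in either library for 12727 gene IDs. Of these, 5723 had 50 or more reads over both libraries and were compared. They held 98.2% of the control reads and 98.5% of the treated IR reads. The remaining 7004 had too few reads to be described singly. As a stand-in for RNA of other liver cells, 88 genes were taken by level. They stood at 5 CPM or more in every whole-liver library and at least 8-fold lower in untreated IR hepatocytes. The choice uses neither library compared here, and without symbols the cell type of these genes was not checked. Their summed level was 112 CPM in control hepatocytes (362 reads) and 129 CPM in treated IR hepatocytes (279 reads), against 1963 to 2325 CPM in the whole-liver libraries. The ratio between both hepatocyte libraries was 1.15 (interval 0.983 to 1.35), so a difference in their sum was not detectable at this depth. Only 2 of the 88 had 50 or more reads over both hepatocyte libraries, and 7 had none. In 10 transcripts described below, untreated IR hepatocytes were at least 8-fold below both other hepatocyte libraries. Control liver was at 50% or less of both IR livers in the same 10. The same 2 libraries were lowest by smaller margins in genes among the most abundant. For a gene with 4.38% of control hepatocyte reads, control liver held 8955 CPM and untreated IR hepatocytes 9516, against 25823 to 56667 CPM elsewhere. Values set beside these 2 libraries carry that limit. The main comparison uses neither library except in the TMM scaling.

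Most genes stood close together in both libraries. Within 1.5-fold of equality lay 4162 of the 5723 genes, or 72.7%, and the median log2 ratio was 0.066 (interquartile range -0.29 to 0.41). At least 2-fold apart were 428 genes, 7.48% of those compared. Of these, 215 were higher in treated IR (3.76%) and 213 lower (3.72%). The differences were of moderate size. The higher genes had a median ratio of 2.30 (interquartile range 2.12 to 2.62), and the lower genes were a median of 2.30-fold lower (2.14 to 2.67). At least 3-fold apart were 35 higher and 33 lower genes, at least 4-fold 4 and 8, and at 6-fold none was left in either direction. The highest ratio was 5.09 and the lowest 0.173, and 0 of the compared genes were without a read in one of the libraries. Genes next to the limit of 2-fold had ratios of 2.00055 (interval 1.48 to 2.71) just inside and 1.9979 (1.81 to 2.21) just outside, so many genes near it could fall on either side.

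The even split of higher and lower genes rests on the scaling. When library totals replace TMM, every log2 ratio moves by -0.24. Then 87 genes were higher and 435 lower, so that higher genes made up 16.7% of the genes apart instead of 50.2%. All of these 87 higher genes belonged to the 215, and all of the 213 lower genes remained among the 435.

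**Figure D1:**
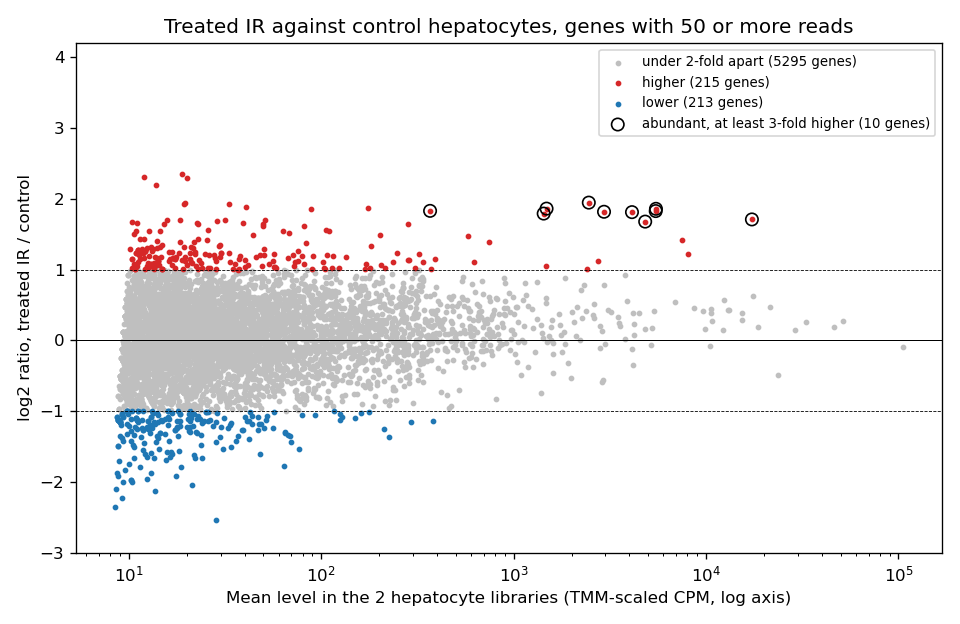
Log2 ratio of treated IR to control hepatocytes (vertical axis) against the mean level in both libraries in TMM-scaled CPM (horizontal log axis), 1 point per gene with 50 or more reads. Red points are the 215 genes at least 2-fold higher, blue points the 213 at least 2-fold lower, dashed lines mark 2-fold, and circles mark the 10 abundant genes that were at least 3-fold higher.

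The direction of the differences changed with expression level. Among the 2113 genes under 20 CPM, 89 were higher and 130 lower in treated IR, with a median log2 ratio of -0.0041. Between 100 and 300 CPM, 23 of 666 genes were higher and 10 lower, with a median of 0.14. Between 300 and 1000 CPM, 9 of 261 were higher and 1 lower, with a median of 0.19. Above 1000 CPM, 14 of 117 genes were higher and 0 lower, with a median of 0.28. The 14 include all but the least abundant of the 10 abundant genes at least 3-fold higher that are described below. Among the compared genes, abundant ones thus stood higher in the treated library as a class, while lower genes were found mainly at low levels. Under library totals all of these medians are lower by 0.24. The class above 1000 CPM then still has a positive median and the others a negative one. Precision also differs by class: the interval of a typical gene reaches 1.66-fold to either side under 20 CPM and 1.03-fold above 1000 CPM. Of the lower genes, 171 of 213 had under 200 reads over both libraries, against 136 of the 215 higher genes. The level classes were set after the data had been seen.

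**Figure D2:**
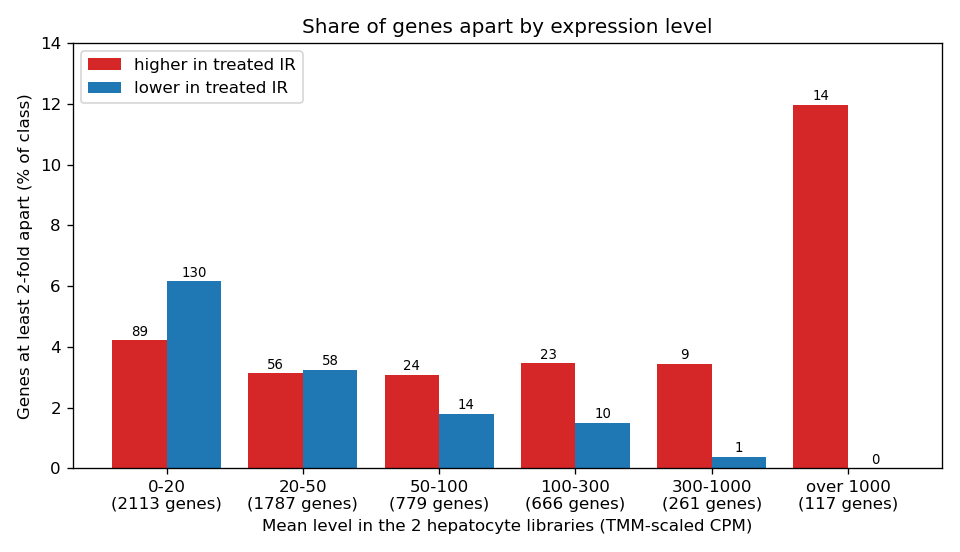
Genes at least 2-fold apart as a percentage of each class of mean level (horizontal axis, TMM-scaled CPM, with the number of genes in the class), red for higher and blue for lower in treated IR hepatocytes. Numbers above the bars are gene counts, and the share of lower genes goes from 6.15% under 20 CPM to 0 above 1000 CPM, while the share of higher genes is 11.97% above 1000 CPM. The higher genes above 1000 CPM include all but the least abundant of the 10 abundant genes at least 3-fold higher.

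The clearest difference lay in 10 abundant genes that were higher together. Among genes with a mean of at least 300 CPM, 23 were called higher. Of these, 10 were at least 3-fold higher, with ratios between 3.20 and 3.85. The next gene below stood at 2.77. The 10 genes together took 1.95% of reads in control and 5.65% in treated IR, a summed ratio of 3.42 (interval 3.39 to 3.45). They made up 32.0% of all read share that genes gained between the libraries (3.70 of 11.6 percentage points). Their proportions to each other moved little: the most abundant of them held 39.0% of their reads in control and 37.3% in treated IR, and the least abundant 0.777% and 0.808%. All 10 were called higher under each of the 4 other scalings. These genes were picked by their ratios in these same libraries. The ratios, and the close proportions that follow from them, are therefore a description.

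The first gene by the distance of its interval from equality was one of the 10. ENSRNOG00000029707 stood at 1013 CPM in control hepatocytes (3273 reads) and 3904 CPM in treated IR hepatocytes (8429 reads). The ratio was 3.85 (interval 3.70 to 4.01). Untreated IR hepatocytes held 3648 CPM, close to the treated level. In whole liver the level was 1372 CPM in the control library, 1817 after IR alone and 1443 after treated IR, and the liver ratio of treated IR to control was 1.05 (interval 1.01 to 1.09). Thus both hepatocyte libraries after IR were high for this gene, and the 3 liver libraries lay between them and the hepatocyte control.

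Summed over the 10 genes, the level was 20790 CPM in control hepatocytes, 61875 CPM in untreated IR and 71057 CPM in treated IR. In untreated IR hepatocytes the 10 genes stood 2.33- to 3.60-fold above the control, a comparison that shares its control library with the main one. In whole liver their sum was 27211 CPM in the control, 31669 after IR alone and 24661 after treated IR, and the treated to control ratio of the single genes ran from 0.748 to 1.20. The control hepatocyte library was therefore the lowest of the 6 in these genes, below all 3 livers, and both IR hepatocyte libraries were the highest. Whether the level of the control pool or that of the IR pools is the unusual one was not tested.

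**Figure D3:**
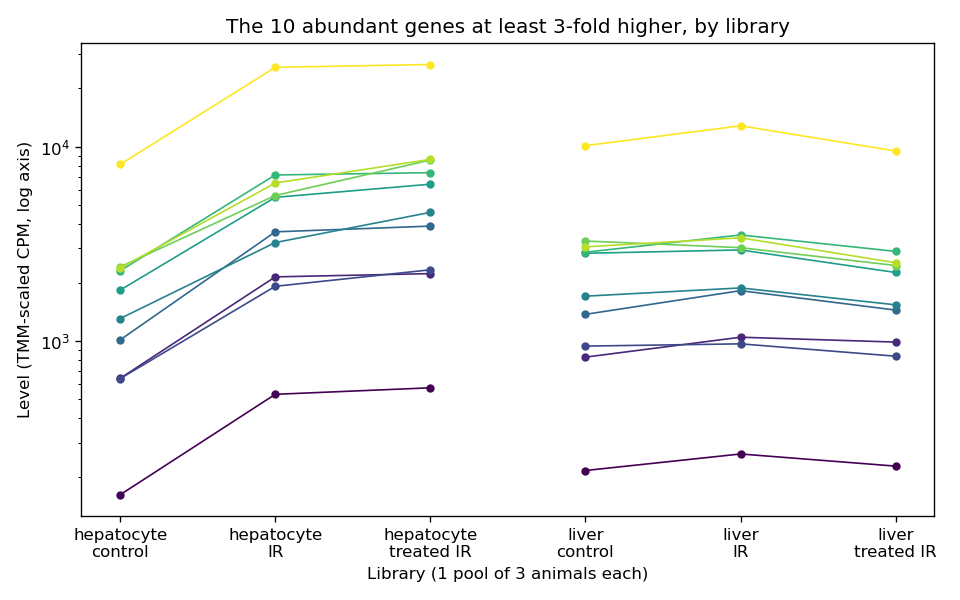
Level of the 10 abundant genes in each of the 6 libraries (vertical log axis, TMM-scaled CPM), 1 line per gene, with hepatocytes on the left and whole liver on the right. All 10 lines go up from control hepatocytes to both IR hepatocyte libraries, and they stay within about the same level across the liver libraries, where their sum ran from 24661 to 31669 CPM.

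Another 13 genes with a mean of at least 300 CPM were 2- to 3-fold higher, with ratios from 2.01 to 2.77. They took 1.45% of reads in control and 2.88% in treated IR. These genes did not behave alike in the other libraries. Relative to control, they stood between 0.0835 and 3.16 in untreated IR hepatocytes (median 0.815), and between 0.358 and 9.81 in treated IR liver relative to its own control (median 1.36). In the genes with ratios 2.62 and 2.33, as in the 10 above, control hepatocytes were the lowest library and both IR hepatocyte libraries the highest. Control liver and untreated IR hepatocytes were instead the lowest libraries in the genes with ratios 2.77, 2.66, 2.32, 2.14 and 2.08. By a small margin the gene with ratio 2.024 had the same form.

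The most abundant transcripts changed little. The 10 genes with most reads in each library overlapped in 9, and 11 genes in all had ratios from 0.715 to 3.27. Only the most abundant of the 10 genes described above was called apart among these 11. The first gene by reads, the same in all 6 libraries, took 10.2% of control reads and 8.10% of treated IR reads. On the TMM scale its ratio was 0.940 (interval 0.935 to 0.945). Untreated IR hepatocytes gave this gene 19.4% of reads, so here the treated library lay close to the control and the untreated IR library apart from both.

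The lower genes were mostly of low or middle level, and 11 of them had a mean of at least 100 CPM. These 11 were 2.002- to 2.57-fold lower, with a median of 2.15. The most abundant of them went from 525 CPM in control (1694 reads) to 239 CPM in treated IR (516 reads), which is 2.19-fold lower (interval 1.99 to 2.43). In untreated IR hepatocytes the 11 genes stood at 0.516 to 1.27 times the control, with a median of 0.820. In all 11 the treated IR hepatocyte library was the lowest of the 6 libraries.

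Both of the first lower genes by the distance of the interval from equality had that form. ENSRNOG00000033415 was at 48.3 CPM in control hepatocytes (156 reads) and 8.34 CPM in treated IR hepatocytes (18 reads). It was 5.79-fold lower (interval 3.55 to 10.03). Untreated IR hepatocytes held 114 CPM, and the liver libraries held 57.5 CPM (control), 80.1 (IR alone) and 40.7 (treated IR). ENSRNOG00000015124 was at 99.4 CPM in control hepatocytes (321 reads) and 29.2 CPM in treated IR hepatocytes (63 reads), 3.41-fold lower (interval 2.59 to 4.54). It stood at 92.0 CPM in untreated IR hepatocytes and between 79.2 and 114 CPM in whole liver. In both genes the treated hepatocyte library stood alone below the other 5.

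The same was seen over the lower genes as a group. Their median level was 22.0 CPM in control hepatocytes, 21.6 in untreated IR and 8.80 in treated IR, and 19.4 to 20.6 CPM in whole liver. The treated IR hepatocyte library was the lowest of the 6 in 192 of 213 lower genes, or 90.1%, against 18.5% of the genes not called. For the higher genes the median level was 14.6 CPM in control hepatocytes, 16.6 in untreated IR and 34.7 in treated IR, and 16.5 to 17.8 CPM in whole liver. The treated IR hepatocyte library was the highest of the 6 in 189 of 215 higher genes, or 87.9%, against 34.4% of the genes not called. The choice of the genes favours such extremes, since it requires the treated library to stand apart from the control, so these shares are a description.

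Some transcripts were far lower in untreated IR hepatocytes than in both compared libraries. In 21 of the 5723 genes the untreated IR library was at least 8-fold below both control and treated IR. All 21 still had reads in untreated IR, and 19 of the 21 had a ratio above 1. Of the 21, 9 were called higher in treated IR and 0 lower, where 3.76% of all compared genes were called higher. Their summed level was 16122 CPM in control, 1222 in untreated IR and 29059 in treated IR, a treated to control ratio of 1.80 (interval 1.78 to 1.82). In only 2 genes was untreated IR at least 8-fold above both, and neither was called. The choice of the 21 genes uses both compared libraries, so these counts are a description.

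The 21 genes were then read in whole liver, which shares no library with the choice. In 10 of the 21, control liver was at 50% or less of both IR livers, which held for 1.66% of all 5723 compared genes. Among the 8 of them with a mean of at least 50 CPM it held in 7, and the eighth was higher in control liver (30.5 CPM) than in IR (16.4) and treated IR (14.8). ENSRNOG00000028896, chosen after its values were seen, is the extreme case. It had 440 reads in control hepatocytes (136 CPM), 1 read in untreated IR (0.193 CPM) and 923 in treated IR (427 CPM), a treated to control ratio of 3.14 (interval 2.80 to 3.52). In whole liver it had 0 reads in control, which allows up to 1.31 CPM, against 810 reads in IR (120 CPM) and 968 in treated IR (129 CPM). In the 10 genes control liver was low among the livers and untreated IR hepatocytes low among the hepatocyte libraries. These libraries carry different condition labels. The 10 genes were counted by this pattern, so it is a description. Condition and other differences between the pooled animals cannot be told apart here.

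**Figure D4:**
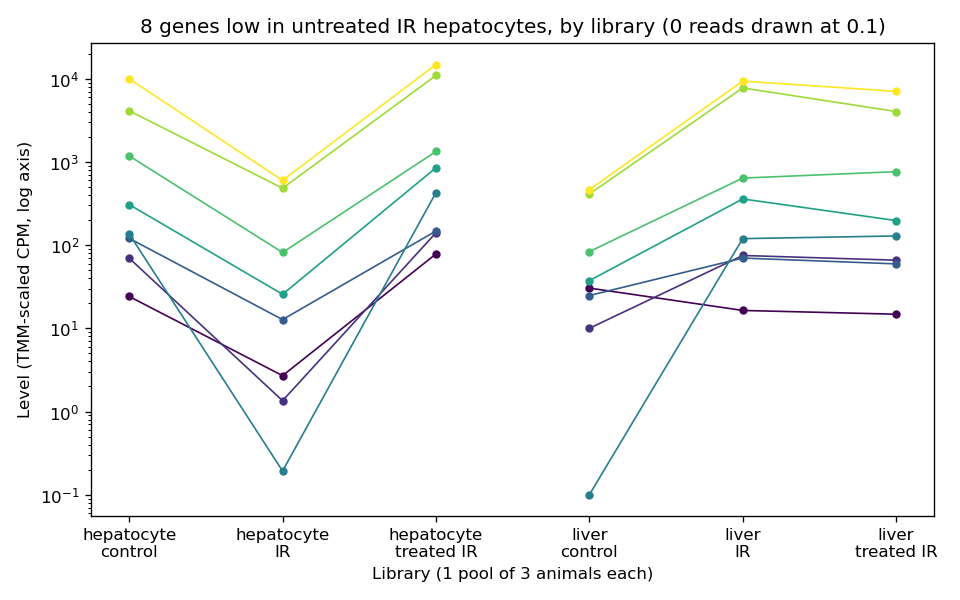
Level of the 8 genes with a mean of at least 50 CPM that were at least 8-fold lower in untreated IR hepatocytes than in both other hepatocyte libraries (vertical log axis, TMM-scaled CPM), 1 line per gene over the 6 libraries, with 0 reads drawn at 0.1 CPM. The hepatocyte lines dip at untreated IR by the choice of the genes, and in 7 of the 8 the control liver lies at 50% or less of both IR livers.

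Treated IR was also set against control in whole liver, for the same genes and from other animals. Of the 5723 genes, 5701 had 50 or more reads over both liver libraries, and 4.44% of these were at least 2-fold apart in liver (2.37% higher and 2.07% lower). Among the genes higher in hepatocytes, 207 could be read in liver. Of these 15 were higher there (7.25%) and 5 lower (2.42%). The 15 genes are 11.1% of the 135 genes higher in liver, and 5 of the 15 belong to the 21 genes that were at least 8-fold lower in untreated IR hepatocytes. Among the genes lower in hepatocytes, 212 could be read, with 9 higher (4.25%) and 9 lower (4.25%) in liver. The median liver log2 ratio was 0.011 for the higher genes, -0.0031 for the lower genes and 0.0087 for the genes not called. The genes apart in hepatocytes had therefore no common direction in whole liver. In bulk samples fewer cells of a type and less RNA per cell cannot be told apart.

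**Figure D5:**
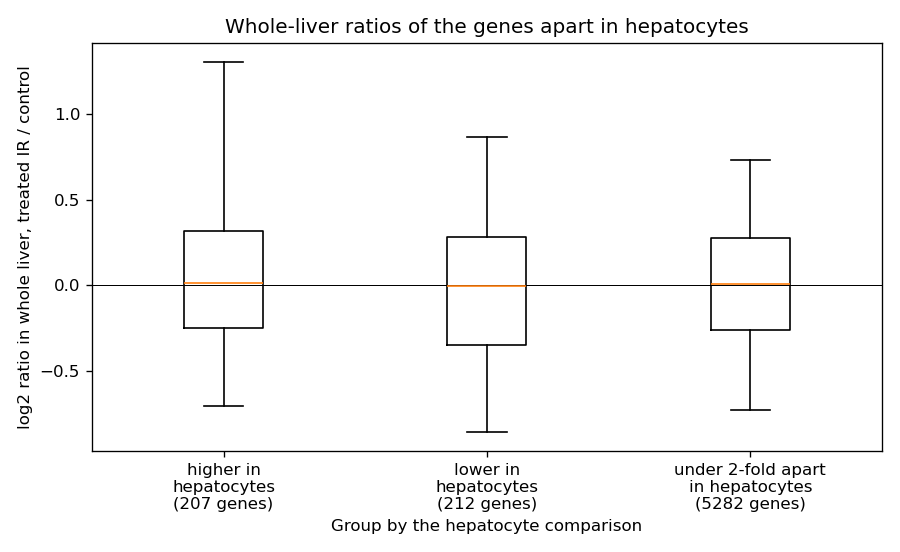
Log2 ratio of treated IR to control in whole liver (vertical axis) for genes higher, lower or less than 2-fold apart in the hepatocyte comparison, with the number of genes with 50 or more liver reads. Boxes show the quartiles and median, and whiskers the 5th to 95th percentile. The medians of all 3 groups lie near 0 (0.011, -0.0031 and 0.0087).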

How the data were processed

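Poly(A)-selected RNA of pooled animals was sequenced on an Ion Torrent Proton instrument, per the labels' protocols. The authors deposited raw counts of reads for each Ensembl gene ID. The submitters' processing notes list TopHat2 2.0.13 and HTSeq 0.6.1. No source used here gives the genome build, the annotation or the strand setting, so counts of overlapping, antisense or near-identical genes are uncertain.

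Summary lines were left out of library sizes. Reads outside genes made up 6.23% of uniquely aligned reads in control and 7.57% in treated IR hepatocytes. TMM factors (edgeR 4.0.16, R 4.3.3) came from all 6 libraries over the 9932 genes that filterByExpr kept (minimum count 10), and were 0.936 for control and 0.795 for treated IR. A count of 0 was taken to allow 3 reads, or 0.929 and 1.39 CPM. Ratios and intervals were computed with scipy 1.17.1.

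On simulated counts for this comparison (5676 genes), the call rule found 61 of 61 genes set 4-fold apart, 55 of 55 set 8-fold apart and 33 of 62 set exactly 2-fold apart, with 8 false calls, and intervals held the true ratio for 96.0% of genes. Only counting error was simulated.

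The members, lists and rules were chosen with earlier results of these data known. The rule for named genes took called genes with a symbol in order of the interval bound nearest equality, the most abundant genes and members of 41 gene lists. As 0 IDs matched a symbol, it named none and no list was used. Of the 4 IDs printed, 3 lead that order and 1 was chosen after its values were seen. The alternatives were other scalings (library totals with and without the most abundant genes, DESeq2 1.42.0 size factors, TMM of the hepatocyte libraries alone), other filters, thinning and other fold limits.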

Additional observations from a re-analysis of the deposited data

Results flagged for a closer look

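Some genes that passed the 2-fold rule in both preparations differed in direction between hepatocytes and whole liver, each treated IR library against the control of its own preparation. In 5 genes treated IR was higher than control in hepatocytes (2.01- to 3.24-fold) and lower in liver (0.354 to 0.485 times the control). These were 2.42% of the 207 higher genes with 50 or more liver reads, where 2.07% of all 5701 genes were lower in liver. Higher in both preparations were 15 genes (7.25%). In 9 genes treated IR was lower in hepatocytes (0.272 to 0.499 times the control) and higher in liver (2.17- to 19.3-fold). These were 4.25% of the 212 lower genes with 50 or more liver reads, where 2.37% of all 5701 genes were higher in liver. Lower in both preparations were also 9 genes (4.25%). The liver ratios use the control liver library, which stood apart in some transcripts as described above. With 1 library per group, the difference in direction was not tested.

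Reads outside annotated genes, which no comparison used, made up 7.57% of uniquely aligned reads in treated IR hepatocytes (95% Wilson interval 7.54 to 7.60, counting error only), above the 6.23% in control hepatocytes (6.20 to 6.25). Untreated IR hepatocytes had 8.34%, and the liver libraries 7.004% to 7.66%.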

How the results depend on the processing

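No paired analysis was possible because each group is 1 library and the labels carry no replicate numbers. For the same reason no replicate could be left out. The gene lists were not run, since no ID matched a symbol. Against 215 higher and 213 lower genes, library totals gave 87 and 435, totals without the 20 most abundant genes of either library 86 and 439, and totals without the 10 abundant genes (added after the data were seen) 105 and 360. The genes kept by filterByExpr gave 420 and 406, no filter 450 and 409, and a minimum of 200 reads 79 and 42. A limit of 4-fold left 4 and 8 genes, and 1.5-fold 777 and 585. DESeq2 size factors (215 and 213), TMM of both hepatocyte libraries alone (177 and 243) and the control thinned to the treated depth (211 and 177) stayed within 1.5 times. The 4 IDs kept their direction and stayed at least 2-fold apart under these scalings and thinning, and the summed ratio of the 10 abundant genes ran from 2.90 to 3.42. Depth limits the low genes most, since 3 reads equal 1.39 CPM in the treated library. How far pools of unchanged animals differ cannot be read from 1 library per group.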
